A study of Homo sapiens with 2 samples.

Results

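The genes described here encode the steps that carry glucose to lactate, the gate through which pyruvate enters the mitochondrion, and the pentose phosphate pathway. They were fixed by name, and a probe set counted for a gene if the platform table gave that gene as its only symbol. Of 34 genes listed, 32 were measured, by 78 probe sets, among 19775 genes on the array. The lactate transporter genes SLC16A1 and SLC16A3 had no probe set of this kind, so their expression was not analysed here. The samples were 2 cultures labelled as U87, an established human glioblastoma cell line, grown in serum-containing medium. By their labels, one culture received a non-target siRNA, the other an siRNA to FOXM1, a forkhead transcription factor. RNA was taken 48 hours later and measured on 1 array each, with no untransfected culture and no replicate.

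Glycolysis splits glucose into pyruvate in the cytosol and yields ATP without oxygen. Many tumours, gliomas among them, turn much of that pyruvate into lactate instead of burning it in mitochondria, and several steps exist as isoenzymes from separate genes that are favoured in different tissues. The pentose phosphate pathway branches off after the hexokinase step and supplies NADPH and the ribose of nucleotides.

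A single array per group gives neither an SD nor a test, and every value compares these 2 arrays as labelled. Differences are log2 values, FOXM1 siRNA minus non-target siRNA, of the brightest probe set of a gene. The error available is that within a gene: over 5476 genes with several probe sets above background, the log2 difference of a probe set had an SD of 0.50 around its gene mean, which makes 0.71 for the gap between a pair. Signals below the background floor of an array (60.8 on the non-target and 77.7 on the FOXM1 siRNA array) were raised to it. FOXM1 itself read 1520 (non-target) and 1343 (FOXM1 siRNA), a ratio of 0.884, so the target transcript did not check the labels. CDKN2A and MTAP, which U87 cells are known to lack, read 3467 and 619 on the non-target array and 421 and 76.3 on the FOXM1 siRNA array. An effect of the siRNA and a difference between the cells cannot be told apart, and in a whole-culture extract fewer cells of a kind and less RNA per cell cannot be told apart either. Of 8 fibroblast marker genes, 6 were at least 2-fold higher on that labelled FOXM1 siRNA (summed signal 2114 against 22681), with THY1 below both floors. Of 7 neuronal marker genes 3 were at least 2-fold higher (8021 against 14385), with RBFOX3, SYP and STMN2 below both floors. Of 8 epithelial marker genes 5 were detected, with KRT19, KRT14 and ESRP1 below both floors. Of the 5, 2 were at least 2-fold lower (40.0%, beside 15.5% of all). Of their summed signal (12764 against 1180.1), DSP alone gave 9707 on the non-target array. Of 10 glial and glioma marker genes 8 were detected, with GFAP and AQP4 below both floors. Of the 8, 2 (25.0%) were at least 2-fold higher, CD44 (13.2-fold) and NES (at least 4.29-fold). SOX2 was lower (12.5%, at least 8.75-fold, in the brightest of its probe sets). Of their summed signal (24891 against 70679), VIM gave 21179 and 40017. Sums over genes are carried by the brightest of them. Of 5 immune markers measured 4 were below both. The part of any of these in the results below was not tested.

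On the FOXM1 siRNA array, 8 of the 32 measured genes were higher by 2-fold or more and 2 lower by 2-fold or more. These are 25.0% and 6.25% of them, beside 16.1% and 15.5% of all 13962 detected genes. The median log2 difference was 0.47, beside 0.01 over all detected genes, and 22 of the 32 genes (68.8%) lay above 0, beside 50.4% of all. All 8 of the higher genes lay between glucose uptake and pyruvate kinase. The medians differed by position in the pathway. From glucose uptake to lactate dehydrogenase, 8 of 20 genes (40.0%) were higher by 2-fold or more. None was lower by that much, and the median was 0.79. Of the 6 genes of pyruvate dehydrogenase and its kinases 1 was lower by 2-fold or more and none higher. That share, 16.7%, is close to the 15.5% of all detected genes, and the median was -0.70. The 6 pentose phosphate genes had a median of 0.28, and 1 of them (again 16.7%) was lower by 2-fold or more.

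**Figure D1:**
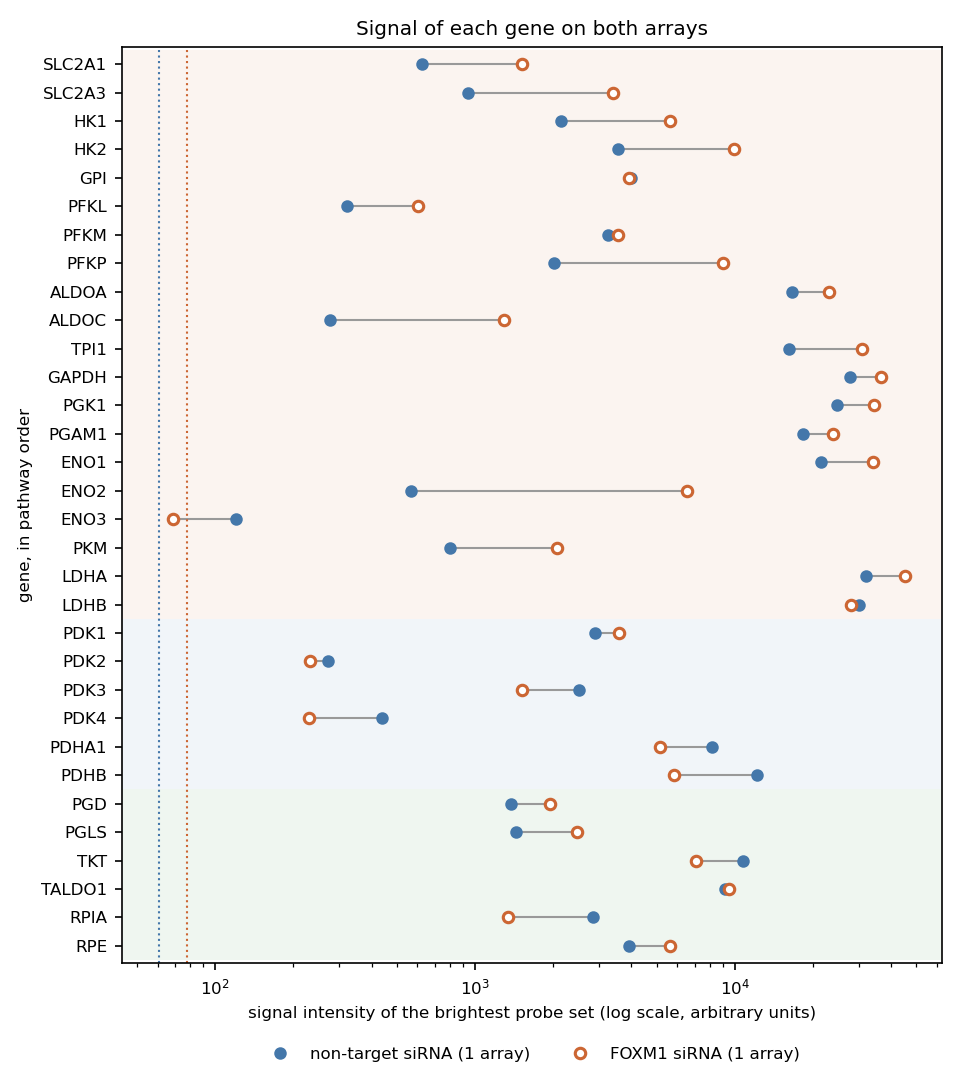
Signal intensity of the brightest probe set of each of the 32 measured genes (x axis, log scale, arbitrary units) on the non-target siRNA array (filled blue) and the FOXM1 siRNA array (open orange), 1 array each, with dotted lines at the 2 background floors and shading for glucose uptake to lactate (top), pyruvate dehydrogenase and its kinases (middle) and pentose phosphate genes (bottom). The orange point lies to the right in 17 of the 20 genes of the top block and to the left in 5 of the 6 genes of the middle block.

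The largest differences of both signs belonged to genes with 1 transcription start window in RefSeq, and their upstream sequences are shown to place the genes in the genome and to show where the core of the hypoxia response element occurs. This element is bound by HIF transcription factors, which are known to drive many glycolytic genes. The 250 bases before the start are given 5′ to 3′ on the gene's strand, build GRCh38.p14, with the letters ACGTG or GCGTG on either strand in capitals. ENO2 (chr12:6914330-6914579, plus strand) and ALDOC (chr17:28576896-28577145, minus strand) had the highest differences on the FOXM1 siRNA array. RPIA (chr2:88691423-88691672, plus strand) and PDHB (chr3:58433833-58434082, minus strand) were the 2 that were at least 2-fold lower.
ENO2: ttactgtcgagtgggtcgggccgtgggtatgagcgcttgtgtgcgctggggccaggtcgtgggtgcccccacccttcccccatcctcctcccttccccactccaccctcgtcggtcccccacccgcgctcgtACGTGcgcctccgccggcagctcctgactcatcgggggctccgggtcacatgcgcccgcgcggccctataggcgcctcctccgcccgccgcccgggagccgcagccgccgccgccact
ALDOC: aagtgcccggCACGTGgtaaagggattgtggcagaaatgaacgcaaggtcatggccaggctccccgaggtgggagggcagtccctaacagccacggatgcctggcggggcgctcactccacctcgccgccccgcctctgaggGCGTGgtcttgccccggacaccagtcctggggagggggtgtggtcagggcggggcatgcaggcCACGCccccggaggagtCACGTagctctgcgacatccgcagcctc
RPIA: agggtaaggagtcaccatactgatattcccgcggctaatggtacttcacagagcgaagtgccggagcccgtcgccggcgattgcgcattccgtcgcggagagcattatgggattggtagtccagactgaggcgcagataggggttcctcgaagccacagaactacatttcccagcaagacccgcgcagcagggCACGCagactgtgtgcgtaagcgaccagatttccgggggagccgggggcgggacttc
PDHB: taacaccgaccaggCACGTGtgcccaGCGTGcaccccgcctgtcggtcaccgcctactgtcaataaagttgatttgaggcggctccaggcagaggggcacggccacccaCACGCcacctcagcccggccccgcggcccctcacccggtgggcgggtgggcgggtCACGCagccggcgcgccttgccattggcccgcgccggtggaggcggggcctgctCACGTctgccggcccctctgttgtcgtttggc
ENO2 held 1 core, an ACGTG that begins at position -118 from the start. ALDOC held 3 ACGTG and 2 GCGTG matches, of which 2 ACGTG matches are both strands of the palindrome CACGTG, the E-box core. PDHB held the same palindrome, again read as 2 ACGTG matches, plus 1 more ACGTG and 3 GCGTG matches, and RPIA 1 GCGTG. Such short matches also occur for many other genes, as counted below, and their part in the differences was not tested.

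The letters were also counted over windows of 300 bases (250 before and 50 after a start). RefSeq windows were matched for 32 of the 34 listed genes, which are not the 32 measured ones: SLC16A3 has windows but no measurement, SLC2A3 was measured but has no window, and SLC16A1 has neither. ACGTG was found for 17 of the 32 genes with a window (53.1%), beside 24.9% of all 27305 genes, and in 35.0% of their 60 windows, beside 21.4% of all 35116. GCGTG was found for 20 of them (62.5%, beside 40.6% of all genes) and in 40.0% of windows (beside 36.5%). CACGTG was found for 7 (21.9%, beside 8.77%) and in 11.7% of windows (beside 7.26%). The listed genes have more windows each, 1.88 on average beside 1.29 over all genes, and a gene with more windows has more places for a match. Of the 31 genes with both a window and a measurement, ACGTG was found for 4 of 7 genes at least 2-fold higher, 1 of 2 at least 2-fold lower and 11 of 22 under 2-fold. For GCGTG the same counts were 6 of 7, 2 of 2 and 11 of 22. The forkhead core TAAACA was found for 1 of the 32 genes, PFKM, beside 14.7% of all genes, and in 3.33% of windows, beside 12.3%. These are letter matches on both strands, and ACGTG includes every CACGTG.

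At the entry to the pathway both glucose transporters and both hexokinases were higher on the FOXM1 siRNA array. SLC2A1, the basal transporter GLUT1, read 625 on the non-target and 1513 on the FOXM1 siRNA array, a 2.42-fold difference. Its other probe set was below the floor on the non-target array and 111 on the other, at least 0.87 higher on the log2 scale. SLC2A3, the high-affinity transporter GLUT3 that is typical of neurons, read 937 and 3409.6 (3.64-fold). Its 3 probe sets all were higher, by 1.83 to 2.31, and 2 further probe sets that also match its close relative SLC2A14 gave 1.98 each. Signal of SLC2A14 cannot be told apart in those 2.

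Hexokinases trap glucose in the cell by phosphorylating it. HK1, the form found in most tissues, read 2147 and 5619.6 (2.62-fold) in its only probe set. HK2, the inducible form common in tumours, read 3538 and 9901 (2.80-fold) in its brightest probe set. Its other probe sets went the opposite way, from 229 to 177 and from 282 to 140.5, log2 differences of -0.37 and -1.01. The call for HK2 rests on that brightest probe set, and with the median of its 3 probe sets it was at -0.37. SLC2A1 was at 0.97, just under 2-fold, with the arrays scaled to their hybridisation controls.

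The next steps showed differences between isoenzymes. GPI, the isomerase that follows hexokinase, was level, at 3985 and 3929 in 1 probe set. Among the phosphofructokinases, which commit sugar to glycolysis, the platelet form PFKP read 2021 and 8986 (4.45-fold). The liver form PFKL read 322 and 604 (1.88-fold), with its 2 probe sets at 0.91 and 0.93, and the muscle form PFKM read 3257 and 3547 (1.09-fold). PFKP thus exceeded PFKL by 1.24 and PFKM by 2.03 on the log2 scale, beside the SD of 0.71 for a pair of probe sets of one gene. That order held under each alternative in which the genes were measured, 10 in each case. Several of these cannot change it, because shifting a whole array or changing the floor leaves a gap between such genes as it is. PFKM itself fell below 0 with scaling to the hybridisation controls (-0.18).

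Aldolases cut the doubly phosphorylated sugar into triose phosphates. ALDOC, the form typical of brain, read 276 and 1287 (4.66-fold) in 1 probe set. ALDOA, the form found in most tissues, read 16560.0 and 23087 (1.39-fold), and its 3 probe sets lay between 0.48 and 0.66. The difference of ALDOC exceeded that of ALDOA by 1.74.

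The enolases, which make phosphoenolpyruvate, differed most among themselves. ENO2, the neuron-typical form, read 567 and 6531, an 11.5-fold difference that ranked at percentile 98.5 of all detected genes. ENO1, the form of most tissues, read 21492 and 34034 (1.58-fold), with its 3 detected probe sets at 0.66 to 0.93. ENO3, the muscle form, read 121 on the non-target array and was below the floor on the other, at least 1.55-fold lower. ENO2 exceeded ENO1 by 2.86 on the log2 scale (2.75 to 2.98 over 10 alternatives, several of which cannot change such a gap). ENO2 rests on a single probe set, and so do HK1, ALDOC and RPIA among the genes past 2-fold. The other probe set of PFKP was below both floors.

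ENO2 and TPI1 are near neighbours on chromosome 12 in assembly GRCh38.p14, with 2 protein-coding genes between them. Those 2, SPSB2 and LRRC23, had log2 differences of 0.18 and 1.01. Of the nearest 2 coding genes on either outer side, CDCA3, USP5 and C12orf57 were at -0.49, 0.46 and 0.63, and ATN1, below the floor on the non-target array, was higher by at least 0.92. TPI1 itself was at 0.93, so the difference of ENO2 was larger than that of each of the 6 genes above both floors. That of ATN1 is known only as a bound.

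**Figure D2:**
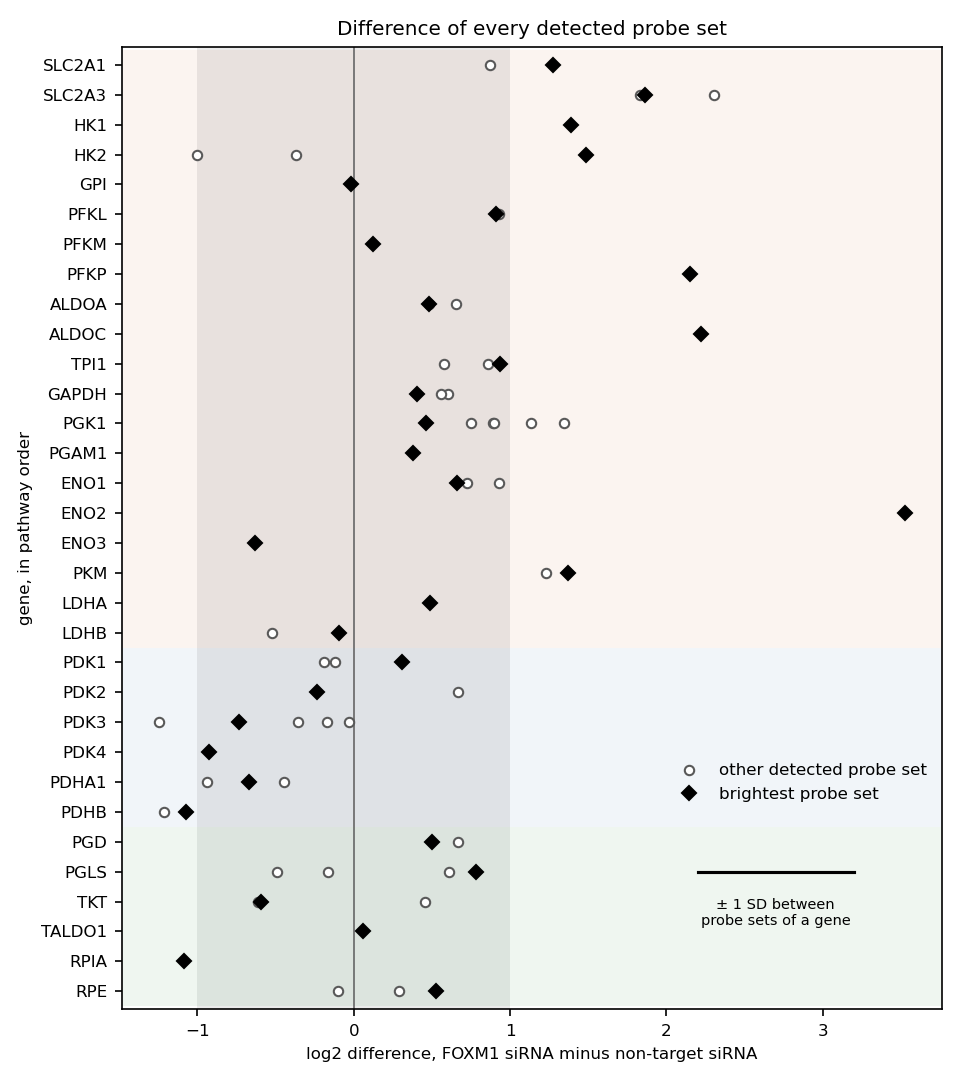
Log2 difference (x axis, FOXM1 siRNA minus non-target siRNA) of every detected probe set of the 32 genes, with the brightest as a black diamond and others as open circles, the grey band marking under 2-fold and the bar giving 1 SD (0.50) to each side. The probe sets of HK2 lie on both sides of 0, whereas ENO2 has 1 probe set at 3.53.

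TPI1, GAPDH, PGK1 and PGAM1, each the only gene of its step here, were all higher by less than 2-fold. TPI1, which interconverts the triose phosphates, read 16209 and 30986 (1.91-fold), the largest difference of its 3 probe sets, which lay between 0.58 and 0.93. GAPDH, the dehydrogenase that makes NADH, read 27771 and 36687 (1.32-fold), and its 3 probe sets lay between 0.40 and 0.60. PGK1, the first ATP-yielding kinase of the pathway, read 24825 and 34252 (1.38-fold). All 6 probe sets of PGK1 were higher, from 0.46 in the brightest to at least 1.35 in the dimmest. PGAM1, the mutase between PGK1 and the enolases, read 18312 and 23855 (1.30-fold) in 1 probe set. With scaling to the hybridisation controls these genes and ENO1, ALDOA and LDHA stayed above 0, at 0.08 (PGAM1) to 0.63 (TPI1), a setting that shifts the median over all genes from 0.01 to -0.29.

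PKM, pyruvate kinase, which makes pyruvate and ATP, was higher, at 800.1 and 2072 (2.59-fold), with its other probe set at 1.23. The probe sets do not separate the M1 and M2 splice forms here. At the last step, LDHA, the subunit that favours lactate formation, read 32102 and 45079 (1.40-fold), while LDHB, typical of heart, read 29967 and 28096 (0.938-fold), with its other probe set at -0.52. The difference between the 2 subunits was 0.58, below the SD of 0.71 for a pair of probe sets. Its sign was kept in all 10 alternatives that measured both, several of which cannot change it.

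Of the 32 genes, 11 had signals among the brightest 5% of detected genes. None of these 11 was at least 2-fold higher, and 1 (9.09%) was at least 2-fold lower. Among the 699 genes in that class, 10.2% were higher and 6.01% lower by 2-fold or more. The signal of a probe set is not a transcript count, so levels of different genes are not compared. Whether differences were compressed near the upper end of the signal range was not tested. The hybridisation controls, added in equal amounts, differed by 0.03 to 0.41. Equal amounts cannot show whether larger differences were compressed. The 3′ to 5′ ratio of the GAPDH control probe sets was 1.26 on the non-target array and 1.09 on the other, and that of ACTB 6.79 and 4.21. The part of RNA integrity in the results was not tested.

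**Figure D3:**
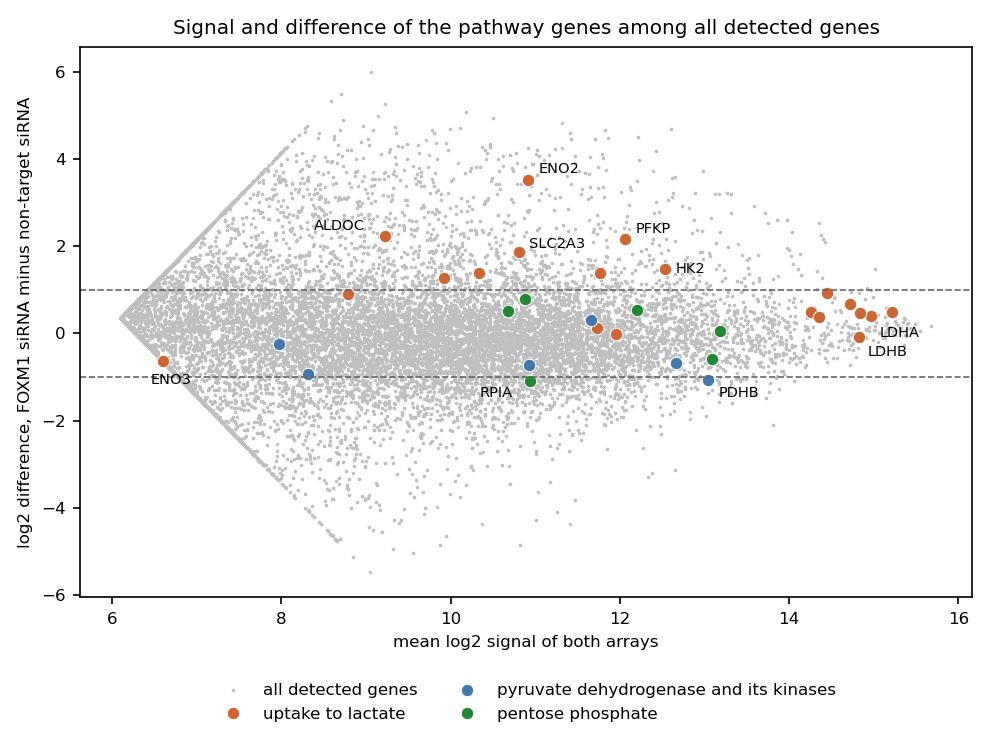
Mean log2 signal of both arrays (x axis) against the log2 difference, FOXM1 siRNA minus non-target siRNA (y axis), with all 13962 detected genes in grey, the 32 pathway genes in colour and dashed lines at 2-fold. ENO2, ALDOC, PFKP and SLC2A3 lie well above the upper line, whereas the cluster of bright glycolytic genes at the right, LDHA among it, lies between the lines; the slanted edges at the left are genes raised to a floor on 1 array.

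Pyruvate dehydrogenase turns pyruvate into acetyl-CoA, and 4 kinases switch it off. The genes of its E1 component were lower on the FOXM1 siRNA array. PDHB, the beta subunit, read 12222.5 and 5818 (2.10-fold lower), with its 2 probe sets at -1.07 and -1.21. PDHA1, the alpha subunit, read 8196 and 5148 (1.59-fold lower), with 3 probe sets between -0.94 and -0.44. Of the kinases, PDK3 and PDK4 were lower as well, each by less than 2-fold in its brightest probe set. PDK3 read 2514 and 1515, with all 5 probe sets below 0 (-1.24 to -0.03). PDK4, the fasting-induced form, read 437 and 230.2 (log2 difference -0.93) in the only 1 of its 3 probe sets that was detected. PDK1, known as a HIF target, read 2896 and 3587 (1.24-fold), but its other 2 probe sets lay below 0, at -0.12 and at most -0.19. PDK2 read 272 and 231 (-0.24), with its other probe set at 0.67, so that neither of these 2 kinases had a settled sign.

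The other genes of pyruvate entry into the mitochondrion, none of them among the 34, gave a like picture with exceptions. Of 7 measured, 2 were lower (28.6%, beside 15.5% of all detected genes) and 1 higher (14.3%, beside 16.1%) by 2-fold or more. The median of the 7 was -0.78. DLAT, the E2 subunit of the complex, read 3272 and 692 (4.73-fold lower), with 3 probe sets between -2.32 and -2.24. MPC1, a subunit of the mitochondrial pyruvate carrier, read 4213 and 1318 (3.20-fold lower), whereas its partner MPC2 was at 0.80. PDP1, the phosphatase that switches the complex on again, was 2.86-fold higher (2325 and 6647). DLD, PDHX and the phosphatase regulator PDPR were at -0.78, -0.06 and -0.89.

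In the pentose phosphate pathway no gene was at least 2-fold higher. Of the oxidative branch, which makes NADPH, PGLS, the lactonase, read 1435.5 and 2471 (1.72-fold), and PGD, the dehydrogenase that releases carbon dioxide, read 1372 and 1943 (1.42-fold). The 4 probe sets of PGLS disagreed, running from -0.49 to 0.78. Of the non-oxidative branch, RPIA, the isomerase that makes ribose phosphate, read 2844 and 1341 (2.12-fold lower) in 1 probe set. RPE, the epimerase acting on the same substrate, read 3929.9 and 5652 (1.44-fold higher), with probe sets from -0.10 to 0.52. A further probe set that also matches its relative RPEL1 was at -0.34. TALDO1, which shuffles carbon units between sugar phosphates, was level at 9131 and 9509.6. TKT, transketolase, which does the same with shorter units, read 10711 and 7090.1 (log2 difference -0.60). Its other probe sets gave -0.61 and 0.45. RPE and RPIA, which share a substrate, thus differed by 1.61 in their log2 differences.

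The 69 other genes fixed as belonging to sugar metabolism gave shares closer to those of all detected genes. They include the genes of pyruvate entry above and those of lactate export below, so these counts overlap. Of 50 detected, 8 (16.0%) were higher and 10 (20.0%) lower by 2-fold or more, and their median was 0.06. PFKFB4, which makes the activator of phosphofructokinase, was 4.06-fold higher (499 and 2027), and the hexokinase-like HKDC1 at least 5.91-fold. GBE1, the glycogen branching enzyme, was 3.07-fold higher, H6PD, the pentose phosphate dehydrogenase of the endoplasmic reticulum, 2.64-fold, and PYGB, brain glycogen phosphorylase, at least 2.12-fold. On the lower side were the transporter genes SLC2A12 (8.14-fold) and SLC2A10 (at least 2.38-fold), the testis-type lactate dehydrogenase LDHC (3.73-fold), ketohexokinase KHK (3.58-fold), PGM2 (3.08-fold), liver glycogen phosphorylase PYGL (2.95-fold) and PRPS1, which turns ribose phosphate into the precursor of nucleotides (2.60-fold). The signals of SLC2A12 and KHK on the FOXM1 siRNA array, 79.2 and 78.6, were only just above its floor.

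Lactate leaves the cell through monocarboxylate transporters that need a chaperone protein at the membrane. Of the other genes of this step, the transporter gene SLC16A7 read 97.8 and 731 (7.48-fold higher), with 5 probe sets from 0.43 to 3.37 after the floor. The chaperone genes went opposite ways. BSG, basigin, read 650.0 and 1529 (2.35-fold higher), and EMB, embigin, read 3519 and 79.5 (44.3-fold lower), the latter close to the floor. The other probe set of EMB, below the floor on the FOXM1 siRNA array, was at -0.04 against that floor.

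Set beside adjoining lists, the genes from glucose uptake to lactate lay between hypoxia genes and mitochondrial genes. Of 23 measured hypoxia genes outside glycolysis, 18 were higher by 2-fold or more (78.3%, beside 16.1% of all detected genes). None was lower, and the median was 1.45. The lists were chosen with earlier results of these data known, so this share is not an independent result. Of 13 measured enzymes of the TCA cycle, the mitochondrial pathway that oxidises acetyl-CoA, 3 were lower by 2-fold or more and none was higher. That is 23.1%, beside 15.5% of all detected genes. Among the 3 were differences of -1.005 and -1.006, only just past 2-fold. The median of the 13 was -0.47. Of 18 detected regulator genes, among them those of the HIF pathway, 4 (22.2%) were higher and 1 (5.56%) was lower by 2-fold or more. Their median was -0.11. Higher were TXNIP (10.3-fold), EPAS1 (9.25-fold, its other probe set at 0.56), HIF1A (2.50-fold) and MLXIPL (at least 2.36-fold). PRKAA2 was 2.38-fold lower. The part of these genes in the other differences was not tested. No test of a difference between lists was possible with 1 array per group.

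**Figure D4:**
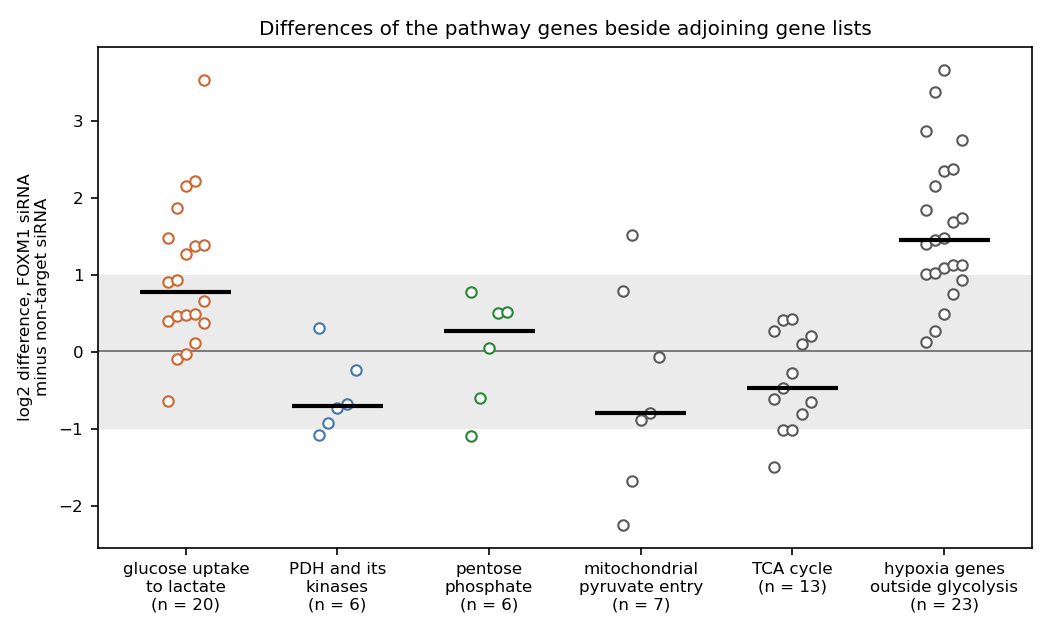
Log2 difference (y axis, FOXM1 siRNA minus non-target siRNA) of each detected gene, with 1 circle per gene and the median as a black bar, for the 3 blocks of pathway genes (coloured) and for mitochondrial pyruvate entry, the TCA cycle and hypoxia genes outside glycolysis (grey); the grey band marks under 2-fold and the thin line the median of all detected genes (0.01). The medians run from -0.78 for pyruvate entry to 1.45 for the hypoxia genes, with 0.79 for glucose uptake to lactate.

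**Figure D5:**
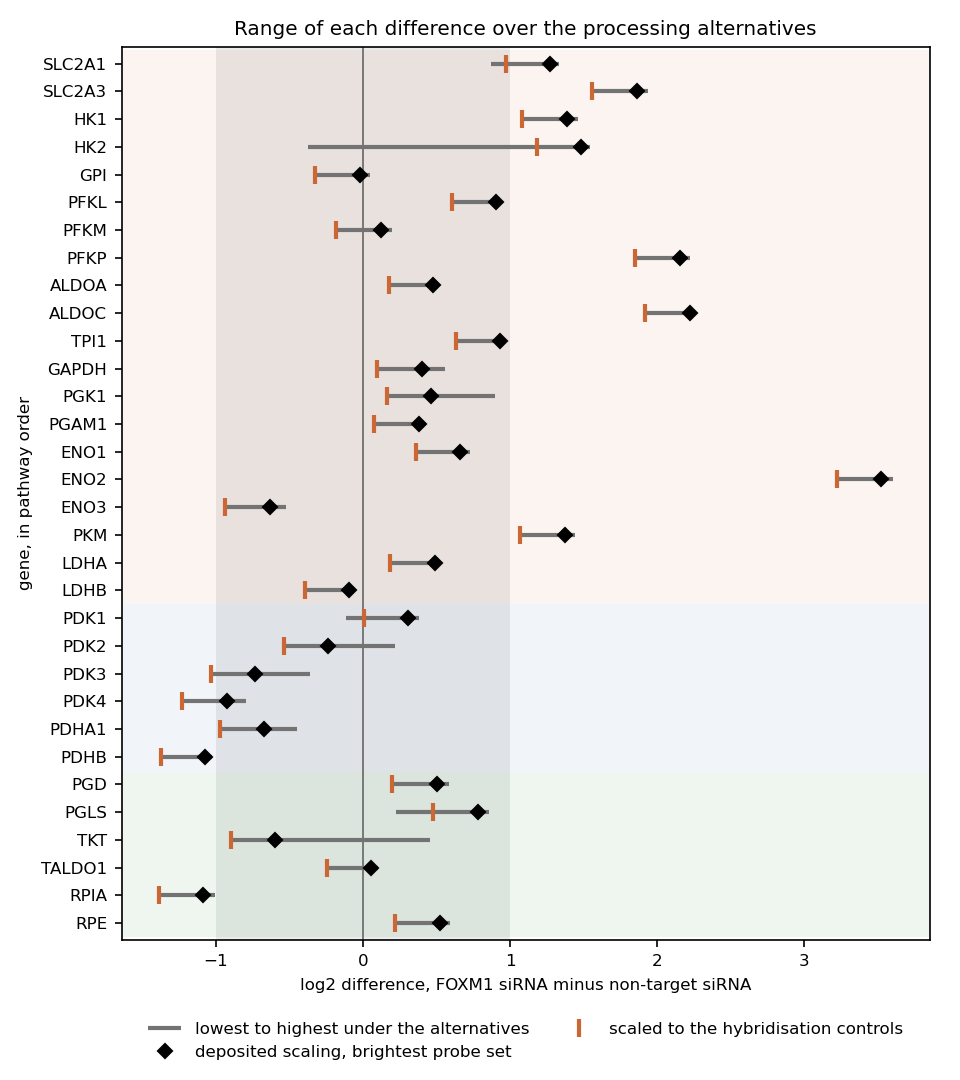
Log2 difference (x axis, FOXM1 siRNA minus non-target siRNA) of each of the 32 genes on the deposited scaling (diamond), its range over up to 11 processing alternatives (grey line) and its value with the arrays scaled to their hybridisation controls (orange tick); the grey band marks under 2-fold. Of the 10 genes past 2-fold, 8 stayed past it in every alternative that measured them, and HK2 is the one whose line crosses 0.

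At 1.5-fold in place of 2-fold, 12 of the 32 genes were higher (37.5%, beside 26.2% of all detected genes) and 7 lower (21.9%, beside 26.9%). The 10 calls at 2-fold were compared over the alternatives shown in the plot of ranges. SLC2A3, HK1, PFKP, ALDOC, ENO2 and PKM stayed at least 2-fold higher, and PDHB and RPIA at least 2-fold lower, in each alternative that measured them. SLC2A1 stayed above 0 but fell under 2-fold with scaling to the hybridisation controls. With probe sets of the _s_at and _x_at kinds, which can detect more than one transcript, left out, it had only a bound, at least 0.87, which does not say on which side of 2-fold it lay. Of the 32 genes, 11 are covered by such probe sets alone, among them GAPDH, LDHA, LDHB, ALDOA and PGAM1, and signal from close copies cannot be kept apart from theirs. Of 20 genes with over 1 detected probe set, 14 had all of them on the same side of 0.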

How the data were processed

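Each of the 2 RNA samples went onto its own array. TRIZOL extraction was followed by biotin labelling with a 3′ IVT kit, per the labels' protocols, so mainly transcript 3′ ends are read. Per the submitters' processing notes, the authors made the values with MAS5, and the sources used here do not give its version or settings. The deposited columns hold linear signal intensities without detection calls. The mean trimmed by 2% on either side was 500.07 for both, so each array had been scaled as a whole. The number of arrays limits the precision.

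Of 54675 probe sets, 41097 had 1 gene symbol in the platform table, 1801 had several and named no gene, and 11777 were not in it. Symbols were updated through the gene ID for 99.9%. The floor of an array was the 90th percentile of 135 olfactory receptor probe sets. Each gene took the probe set whose mean log2 signal, after the floor, was highest. It counted as detected if that probe set exceeded the floor on both arrays (11347 genes) or on 1 (2615). Where 1 array was below its floor, the fold is a bound, written "at least". Control probe sets were left out. No test was run, and a count is of differences of at least 2-fold. Named were all measured genes of the set, FOXM1, 9p21 genes and the other sugar metabolism genes past 2-fold. Chosen after their values were seen were the remaining genes of pyruvate entry and the neighbours of ENO2 and TPI1. So were the regulators past 2-fold and the detected cell type markers named. Undetected cell type markers were named too. The genes and lists were chosen with earlier results of these data known. Promoters are from RefSeq (GRCh38.p14), matched by symbol for 32 of the 34 listed genes. The planned comparison of isoenzyme proteins was not run. The calculation was tested on simulated data. Tools were Python 3.11.15, numpy 2.4.6, pandas 2.3.3, and, for quantile and loess scaling (span 0.3), limma 3.58.1 in R 4.3.3.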

Additional observations from a re-analysis of the deposited data

How the results depend on the processing

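All differences rest on 1 array per group, and no replicate could be left out. No paired analysis was possible because each group holds 1 sample and the labels carry no replicate numbers. Tried were loess, quantile and median scaling, scaling to the 18 hybridisation controls, a common floor, none, or one 2 times as high, a pseudocount of 50, the median over probe sets, no _x_at or _s_at probe sets, a threshold of 1.5-fold, the mean in place of the median, and genes above both floors. Taking the brightest probe set before the floor was chosen after seeing the data. The count of genes at least 2-fold higher lay between 6 and 8 at 2-fold, the 6 among only 20 genes left without _x_at and _s_at (SLC2A1 there has only a bound), and was 12 at 1.5-fold. The count at least 2-fold lower stayed at 2, except for 4 with the hybridisation controls (PDK3 and PDK4 added) and 7 at 1.5-fold. With the hybridisation controls, 1588 of all genes were higher and 3240 lower by 2-fold or more, against 2248 and 2159. The same setting gave medians of 0.17 for all genes of the set, 0.48 for glucose uptake to lactate, -1.004 for pyruvate dehydrogenase and its kinases and -0.023 for pentose phosphate genes. With quantile scaling the medians were 0.33 for the set and 0.67 for glucose uptake to lactate. With the median of probe sets they were 0.34 for the set, -0.51 for pyruvate dehydrogenase and its kinases and 0.14 for pentose phosphate genes. Without _x_at and _s_at they were 1.38 for 10 genes from glucose uptake to lactate and 0.45 for 5 pentose phosphate genes, and with the higher floor 0.91 for glucose uptake to lactate, since ENO3 was no longer detected. The other medians moved by less than 0.1. Of 339 values of single genes under alternatives, 336 moved by less than the SD of 0.50. HK2 reversed, to -0.37 with the median of its probe sets, and PGLS (0.22, median of probe sets) and TKT (0.45, without _x_at and _s_at, against -0.60) moved by more. Many of the 339 values could not have moved that far. Median scaling shifted every gene by 0.017 and the hybridisation controls by 0.30, and floor settings leave genes well above both floors unchanged. The count of 336 is thus no measure of robustness. GPI, PFKM, TALDO1, TKT, PDK1 and PDK2, all under 2-fold, changed sign in at least 1 alternative. Genes near the floor give bounds only.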
